A study of Mus musculus with 14 samples.

Results

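A set of 10 immediate early response genes was examined among the 52550 genes counted in 14 mouse RNA-seq libraries. The 10 genes were the AP-1 genes Fos, Fosb, Jun, Junb and Jund, the zinc finger genes Egr1 and Egr2, and Ier2, Dusp1 and Zfp36. They were taken from the count table by name, and the list was chosen by earlier results of these same data, in which early response genes stood higher in Mir139KO than in WT hematopoietic stem and progenitor cells (HSPCs). The difference between those groups is therefore given as a description, and no value of it is used as support.

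All cells came from C57BL/6 mice aged 8 to 20 weeks. The 4 WT HSPC and 4 Mir139KO HSPC samples were cells of femurs and tibiae enriched with a progenitor enrichment set, and the 6 MLL-AF9 samples were WT HSPCs transduced with a retrovirus carrying the MLL-AF9 fusion gene, 3 with pMSCV-MLL-AF9-neo and 3 with pMSCV-MLL-AF9-puro. Mir139KO mice lack the Mir139 gene, deleted with a Cas9 nickase, and carry no other allele named in the labels. For MLL-AF9, cells were cultured overnight with SCF, GM-CSF and the interleukins IL-3 and IL-6, transduced, drug-selected and replated in semisolid medium. Per the study's methods, they were then expanded in liquid medium with serum and the same cytokines. There was no sample of HSPCs cultured without MLL-AF9. MLL-AF9 and culture can thus not be told apart. Nothing says whether the MLL-AF9 samples came from separate transductions, or each HSPC sample from its own mouse, so p-values measure the spread between these samples.

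Immediate early genes are transcribed within minutes of a stimulus, without new protein synthesis, when kinase cascades act on factors already bound to their promoters, such as SRF with its ELK partners and CREB. Their mRNAs are short-lived. Fos and Jun proteins pair through leucine zippers to form AP-1, EGR proteins bind GC-rich sites, and DUSP1 and ZFP36 close the response by dephosphorylating MAP kinases and by promoting decay of AU-rich mRNAs. In blood progenitors the same genes respond to cytokines.

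Libraries held 35016668 to 45877994 counts. The non-coding RNA Gm26917 took 17.0% to 35.4% of the counts in HSPC libraries and 7.55% to 10.4% in MLL-AF9 libraries. It split the HSPC libraries into a low-share class under 25% (WT replicates 1 and 2, Mir139KO replicates 2 and 3) and a high-share class above it (WT replicates 3 and 4, Mir139KO replicates 1 and 4). Mir139 was counted at 0 in all 14 libraries, so it gave no check of the genotype. Summed stem and progenitor markers lay between 443 and 621 CPM (counts relative to library size) in the HSPC libraries, beside 4528 to 24190 CPM for 11 neutrophil genes. The 6 MLL-AF9 target genes summed to 379 to 1299 CPM in MLL-AF9 and to 32.2 to 85.4 CPM in HSPC libraries, with Hoxa5 at 0 in all.

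Sequence upstream of the gene start, from RefSeq on GRCm38.p6, was found for 8 of the 10 genes, and not for Egr1 and Ier2. It is shown for Fos and Fosb, which rose in MLL-AF9 cells against WT HSPCs, and for Junb, which fell against Mir139KO HSPCs. Each run is the last 120 bases before the RefSeq start, on the gene's strand. Capitals mark TGACG, the core of the site bound by CREB and ATF proteins, and TATAAA, the TATA box.
Fos, chr12:85473770-85473889, plus strand: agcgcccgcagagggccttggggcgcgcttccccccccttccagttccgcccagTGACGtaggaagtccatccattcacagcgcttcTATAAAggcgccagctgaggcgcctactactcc
Fosb, chr7:19310046-19310165, minus strand: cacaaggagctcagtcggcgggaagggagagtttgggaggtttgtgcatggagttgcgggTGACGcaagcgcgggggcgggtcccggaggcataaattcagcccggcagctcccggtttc
Junb, chr8:84978749-84978868, minus strand: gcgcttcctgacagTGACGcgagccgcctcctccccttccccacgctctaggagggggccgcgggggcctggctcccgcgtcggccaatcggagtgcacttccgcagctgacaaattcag

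The 8 genes had 12 windows, and some of those of Egr2 overlap each other. Over the 250 bases upstream and on both strands, TGACG stood in 7 of the 12 windows and in 17.8% of 32851 RefSeq windows. These 7 windows belonged to 5 of the 8 genes (Fos, Fosb, Junb, Egr2 and Dusp1). Its first base was at -129 and -66 in Fos, -60 in Fosb and -106 in Junb, counted from the RefSeq start. Egr1 and Ier2, which were also called in an MLL-AF9 comparison, had no window, so nothing is read from this about direction. The full site TGACGTCA, which contains TGACG, was found in 1 of the 12 windows (Dusp1) and in 1.55% of all windows. The CArG box, which SRF binds, was found in 5 of the 12 windows, those of Egr2 and Zfp36, and in 1.47% of all windows. The EGR site GCGGGGGCG stood in 2 of the 12 windows (Fosb and Zfp36) and in 2.57% of all windows. TATAAA stood in 1 of the 12 (Fos) and in 12.4%, and the AP-1 site TGANTCA in 0 of the 12 and in 6.75%. These matches describe the letters in the windows.

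The level of each gene was taken as CPM scaled by TMM factors, which align libraries on the bulk of their genes. Per kilobase of exon, Ier2, a nuclear early response protein, had the highest mean level in WT HSPCs, at 50.5 ± 19.2 CPM per kb (SD, n = 4). Junb (32.8 ± 9.08), Jund (24.98 ± 13.3) and Zfp36 (14.6 ± 3.61 CPM per kb) followed, and no gap between neighbours down to Zfp36 exceeded the SDs of both. Fos, Jun and Dusp1 lay between 8.92 and 6.26 CPM per kb and did not differ from each other beyond their SD. Egr1 (1.30 ± 0.534), Fosb (0.669 ± 0.487) and Egr2 (0.200 ± 0.0378 CPM per kb) were lowest. Egr2 was read by only 15 to 86 counts per library over all 14 libraries.

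The order in Mir139KO HSPCs was the same gene by gene, from Ier2 at 65.8 ± 25.2 to Egr2 at 0.239 ± 0.0800 CPM per kb (SD, n = 4). In MLL-AF9 cells the spread of the order narrowed at its lower end: Egr1 stood at 9.90 ± 9.90 and Fosb at 5.196 ± 3.21 CPM per kb (SD, n = 6), near Dusp1 at 7.48 ± 3.26. Egr2 stayed lowest, at 0.344 ± 0.0765 CPM per kb, and the gap to Fosb was the only one between neighbours that exceeded both SDs.

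**Figure D1:**
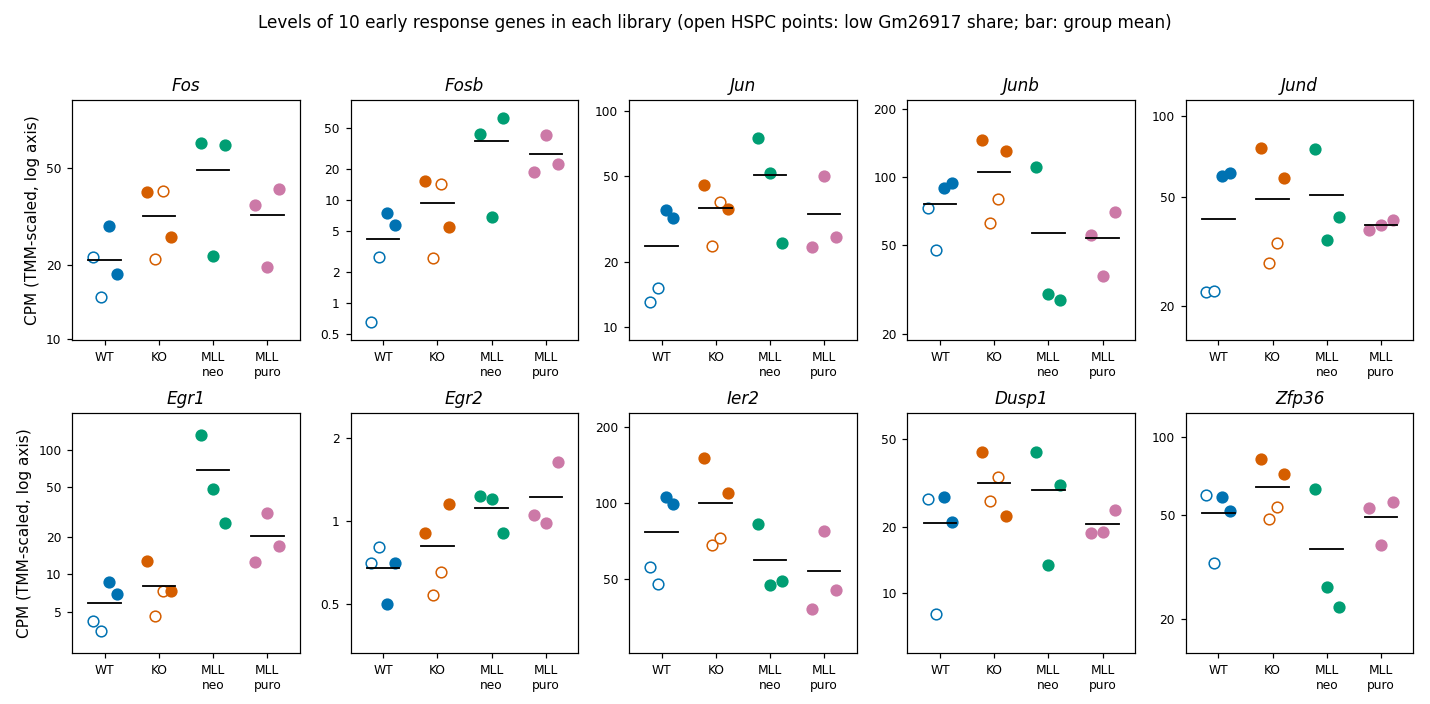
TMM-scaled CPM (log axis) of each gene in each library, by group (WT and Mir139KO HSPCs, MLL-AF9 with the neo or puro vector), with open points for HSPC libraries of the low Gm26917 share and a bar at the group mean. Egr1 reached 12.6 to 131 CPM in MLL-AF9 cells against 3.48 to 8.61 CPM in WT HSPCs.

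The first comparison asked how the genes differed between HSPCs without and with Mir139. All 10 genes had a positive fitted log2 fold change in Mir139KO against WT HSPCs, between 0.22 for Egr2 and 1.16 for Fosb, with a median of 0.46 beside -0.03 over the 15056 genes tested. In edgeR's quasi-likelihood test 0 of the 10 was called at an adjusted p under 0.05, 0 had an unadjusted p under 0.05, and DESeq2 called 0. The share called over all genes was 0%, with 86 at an unadjusted p under 0.05, and in 0 of the 10 genes were the groups without overlap (0.478% of all genes). Since this contrast entered the choice of the genes, nothing is read from these counts.

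Among the AP-1 genes, Fos had 21.6, 14.9, 28.9 and 18.5 CPM in WT replicates 1 to 4, and 39.9, 21.2, 40.3 and 26.0 CPM in Mir139KO replicates 1 to 4. The groups overlapped, with 2 Mir139KO libraries above every WT library, and the log2 fold change was 0.59 ± 0.31 (SE). Fosb had 0.662, 2.81, 7.51 and 5.72 CPM in WT and 15.2, 2.71, 14.2 and 5.44 CPM in Mir139KO libraries, a log2 fold change of 1.16 ± 0.74 (SE). It too overlapped: Mir139KO replicates 2 and 4 lay within the WT range. Jun (0.57 ± 0.38), Junb (0.45 ± 0.33) and Jund (0.23 ± 0.45) gave smaller values on the log2 scale, and Mir139KO replicate 1 had the highest level of all HSPC libraries for each of these 3 genes.

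Ier2 had 55.9, 47.8, 105 and 98.7 CPM in WT and 151, 68.0, 72.7 and 109 CPM in Mir139KO libraries, a log2 fold change of 0.37 ± 0.35 (SE). The WT libraries fell into a lower and a higher pair that followed the Gm26917 share. Dusp1 (0.59 ± 0.40), Egr1 (0.46 ± 0.40), Zfp36 (0.32 ± 0.27) and Egr2 (0.22 ± 0.33) had log2 fold changes under 2 SE. Dusp1, the MAP kinase phosphatase, had 26.7, 8.02, 27.2 and 21.0 CPM in WT and 43.4, 26.2, 33.5 and 22.3 CPM in Mir139KO libraries, with WT replicate 2 far below the rest. Zfp36, the mRNA decay factor, ranged from 32.8 to 59.8 CPM in WT and from 48.4 to 82.2 CPM in Mir139KO libraries, and the groups overlapped for both genes.

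Mean levels of these genes differed between the Gm26917 share classes of the HSPCs. All 10 genes had a higher mean log2 CPM in the 4 high-share than in the 4 low-share libraries, with a median difference of 0.82, beside -0.01 over all 15056 genes. The difference was 1.26 for Jund, 0.92 for Ier2 and 0.81 for Junb. For these 3 of the 10 genes the classes did not overlap, near the 31% of all genes without overlap in this direction. For the other genes the classes overlapped. Jund had 22.4 to 34.1 CPM in low-share and 58.8 to 76.2 CPM in high-share libraries. Fos (0.25) and Egr2 (0.21) differed least between the classes on the log2 scale. The 10 genes were GC-rich: each had a GC content above the median of all genes tested (49.9%), with a median of 55.8% and the highest value, 67.1%, in Jund. The mitochondrial share of the counts moved with the class, at 0.095% to 0.125% in high-share and 0.328% to 0.772% in low-share libraries (1.05% to 2.35% in MLL-AF9), and 14208 to 14664 genes reached 10 counts in high-share libraries against 15012 to 15625 in low-share libraries. The part of the share class, of the mitochondrial share and of GC content in these levels was not tested.

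Within the low-share class both Mir139KO libraries lay above both WT libraries for Jun, Jund, Egr1 and Ier2 (4 of 10 genes, 27.8% of all genes). Within the high-share class they did so for Jun, Junb, Egr2, Ier2 and Zfp36 (5 of 10, 18.4% of all genes). Jun, in which the low-share libraries had 13.1 and 15.2 CPM in WT and 23.7 and 37.98 CPM in Mir139KO, and Ier2 did so in both classes. These counts split the contrast that entered the choice of the genes, so nothing is read from them. Of the neutrophil markers 11 of 11 had a positive log2 fold change in Mir139KO HSPCs, with 0 called. Their sum was 13430, 4528, 13860 and 15710 CPM in WT and 24190, 12450, 11970 and 13690 CPM in Mir139KO replicates 1 to 4. The groups overlapped, and only Mir139KO replicate 1 lay above the WT range. Plasma cell markers had a positive value in 5 of 6, with sums of 334 to 533 CPM in WT and 525 to 627 CPM in Mir139KO libraries, and T and NK cell markers a positive one in 2 of 8 (median -0.33), with 0 called and 2 at an unadjusted p under 0.05. The part of these markers in the early response values was not tested. In bulk samples fewer cells of a type and less RNA per cell cannot be told apart.

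The second comparison set MLL-AF9 cells against WT HSPCs. Egr1, Fosb and Fos rose in MLL-AF9 cells, 3 of the 10 genes, beside 32.8% of 17077 genes called higher, and 0 of the 10 was called lower, beside 29.4%. DESeq2 called 2 higher and 0 lower, and 4 had an unadjusted p under 0.05 in edgeR, all with a positive value. The count of members called is thus close to, or under, the background in each direction. The median log2 fold change was 0.50 over the 10 genes and 0.14 over all genes. The WT libraries are those of the first comparison, so the 2 sets of values are not independent.

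Egr1, an early zinc finger activator, had 4.20, 3.48, 8.61 and 6.95 CPM in WT HSPCs and a lowest, median and highest level of 12.6, 28.5 and 131 CPM in MLL-AF9 cells. The groups did not overlap, as was also so for Egr2 and for 26.1% of all genes with higher levels in MLL-AF9 cells. The log2 fold change of Egr1 was 2.93 ± 0.67 (SE), 7.62-fold, with an adjusted p of 0.00258 in edgeR. Each of the 27 alternatives kept the call, at values between 1.80 and 3.83 on the log2 scale and adjusted p of 9e-06 to 0.0499. Without MLL-AF9 replicate 1, the highest library, the value was 2.21. The alternatives, here and for the genes below, include a fit of the second deposited table. That table held the same values, so this fit repeats the main result and adds no support.

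Fosb (chromosome 7, 19302696 to 19310051, GRCm38), an AP-1 subunit of the Fos family, had 0.662 to 7.51 CPM in WT HSPCs and a lowest, median and highest level of 6.75, 32.3 and 61.5 CPM in MLL-AF9 cells. Only MLL-AF9 replicate 2 lay within the WT range. The log2 fold change was 2.95 ± 0.72 (SE), 7.73-fold, with an adjusted p of 0.00368 in edgeR, and it was called in all 27 alternatives at adjusted p of 2.79e-05 to 0.0341.

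Fos (chromosome 12, 85473890 to 85477273, GRCm38), the founding member of that family, had 14.9 to 28.9 CPM in WT HSPCs and 19.8, 38.1 and 62.9 CPM as the lowest, median and highest in MLL-AF9 cells. Replicates 2 and 5 lay within the WT range. The log2 fold change was 0.93 ± 0.38 (SE), with an adjusted p of 0.0494 in edgeR that lay just inside the threshold. The call held in 10 of 27 alternatives (adjusted p 0.00242 to 0.276), and it was lost without any one of WT replicates 1, 2 and 4 or of MLL-AF9 replicates 1, 3, 4 and 6.

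Egr2, the low-level relative of Egr1, had 0.501 to 0.807 CPM in WT HSPCs and 0.909 to 1.63 CPM in MLL-AF9 cells. Although the groups did not overlap, the log2 fold change of 0.76 ± 0.35 (SE) had an adjusted p of 0.0735 in edgeR. Jun (0.81 ± 0.43, adjusted p 0.115), Dusp1 (0.24 ± 0.41) and Jund (0.11 ± 0.37) were not called, nor were Junb (-0.47 ± 0.40), Ier2 (-0.46 ± 0.32) and Zfp36 (-0.25 ± 0.34), all on the log2 scale with SE.

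The third comparison set MLL-AF9 cells against Mir139KO HSPCs, with the same 6 MLL-AF9 libraries as before. Egr1 and Fosb rose (2 of 10 genes, beside 37.3% of 16953 genes), and Junb and Ier2 fell (2 of 10, beside 31.9%), a direction that turned positive for both after GC correction. The median log2 fold change of the 10 genes was 0.03, beside 0.16 over all genes.

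Egr1 had 12.9, 4.64, 7.37 and 7.35 CPM in Mir139KO HSPCs, so that its lowest MLL-AF9 library, at 12.6 CPM, lay just under the highest Mir139KO library. Its log2 fold change was 2.44 ± 0.64 (SE), 5.42-fold, with an adjusted p of 0.0045 in edgeR. The alternatives ranged from 1.34 with puro cultures to 3.40 with GC correction, and without MLL-AF9 replicate 1 the value was 1.74, still called. Fosb, at 2.71 to 15.2 CPM in Mir139KO HSPCs, had a log2 fold change of 1.76 ± 0.61 (SE) and an adjusted p of 0.0215. For neither gene were the groups free of overlap, as for 0 of the 10 genes in this direction (29.9% of all genes). Egr1 was called in 26 of 27 alternatives and Fosb in 22; without Mir139KO replicate 2 or 4 Fosb was not called.

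Junb (chromosome 8, 84974484 to 84978718, GRCm38), an AP-1 subunit of the Jun family, had 146, 62.2, 79.3 and 130 CPM in Mir139KO HSPCs and a lowest, median and highest level of 28.3, 45.9 and 110 CPM in MLL-AF9 cells. Only MLL-AF9 replicates 1 and 6 reached the Mir139KO range. The log2 fold change was -0.95 ± 0.40 (SE), with an adjusted p of 0.0479 in edgeR, and the call held in 11 of 27 alternatives. It was lost without any one of Mir139KO replicates 1 and 4 or MLL-AF9 replicates 2 to 6 (adjusted p 0.0503 to 0.145). Ier2 had 68.0 to 151 CPM in Mir139KO HSPCs and 38.2, 48.2 and 82.4 CPM in MLL-AF9 cells, with replicates 1 and 5 inside the Mir139KO range. Its log2 fold change was -0.85 ± 0.29 (SE), with an adjusted p of 0.0214, and the call held in 19 of 27 alternatives, but not without Mir139KO replicate 1 (adjusted p 0.0675). The other 6 genes were not called: Fos (0.32 ± 0.36), Jun (0.21 ± 0.35), Jund (-0.15 ± 0.31), Egr2 (0.50 ± 0.35), Dusp1 (-0.36 ± 0.32) and Zfp36 (-0.59 ± 0.31), on the log2 scale with SE.

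**Figure D2:**
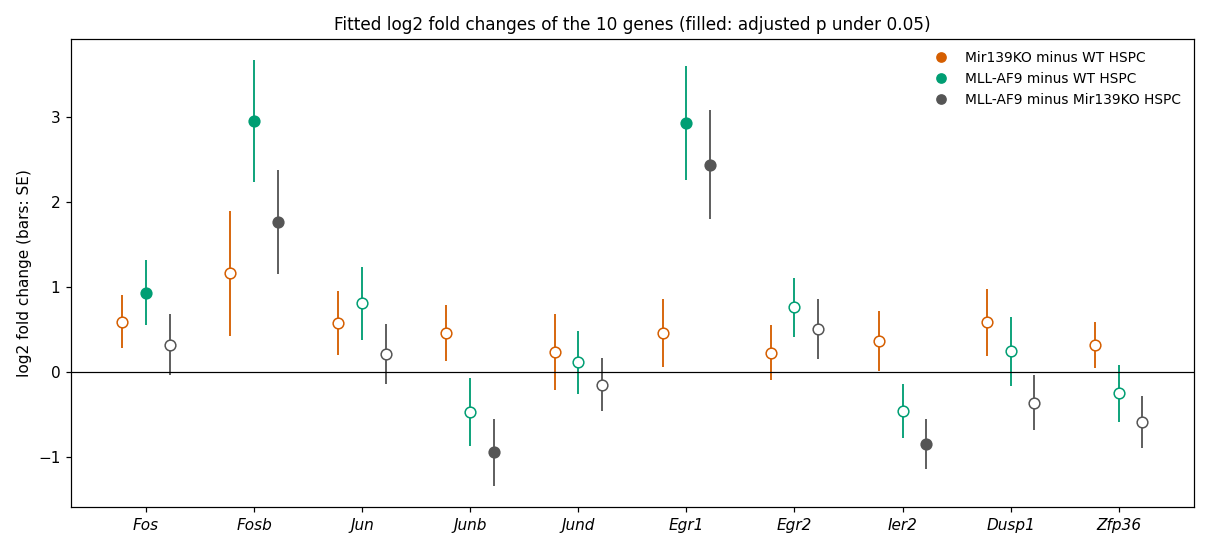
Fitted log2 fold changes of the 10 genes with their SE in the comparisons of the HSPC genotypes and of MLL-AF9 cells with each of them, filled where the adjusted p was under 0.05. Egr1 and Fosb were called higher in both MLL-AF9 comparisons, Fos higher than in WT HSPCs, and Junb and Ier2 lower than in Mir139KO HSPCs, where GC correction turned both positive.

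The falls of Junb and Ier2 against Mir139KO HSPCs kept their calls with RLE in place of TMM factors. Their log2 fold changes were then -1.001 and -0.898 (adjusted p 0.0429 and 0.0198 in edgeR). DESeq2 also called both lower (adjusted p 0.0347 and 0.0153). Both calls were lost with total counts and after GC correction. With total counts in place of TMM factors the median of all genes moved from 0.14 to 0.69 against WT and from 0.16 to 0.84 against Mir139KO HSPCs, and against Mir139KO the log2 fold changes of Junb and Ier2 were -0.11 and -0.05, neither called. The genes called over the whole table moved from 5603 higher and 5027 lower to 6747 and 3128 against WT, and from 6325 and 5416 to 8011 and 3212 against Mir139KO HSPCs. After a correction for GC content Junb and Ier2 turned to 0.11 and 0.24 against Mir139KO HSPCs, neither called, whereas Egr1 was 3.83 against WT and 3.40 against Mir139KO HSPCs, and Fosb 3.94 and 2.67, all called. The correction left the median of all genes at 0.17 and 0.18, and raised that of the 10 genes from 0.50 to 1.22 against WT and from 0.03 to 0.94 against Mir139KO HSPCs. After it 7 genes were called higher against WT (Fos, Fosb, Jun, Jund, Egr1, Egr2 and Dusp1) and 6 against Mir139KO HSPCs (the same without Dusp1). Over all genes, 5562 of 17077 were called higher after it against WT and 5986 of 16953 against Mir139KO HSPCs.

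The values also depended on the HSPC libraries used. Against Mir139KO HSPCs, Ier2 was -1.27 against the high-share class (adjusted p 0.00556 in edgeR) and -0.39 against the low-share class (adjusted p 0.295), and Junb -1.39 (adjusted p 0.0338) and -0.42 (adjusted p 0.504), so that both falls were called against the high-share class alone. Against high-share WT libraries alone Ier2 fell, with a log2 fold change of -0.97 and an adjusted p of 0.0176 in edgeR, and against low-share WT libraries alone it was 0.05. Jund was -0.53 against the high-share and 0.94 against the low-share WT libraries, the latter called. The log2 fold change of Egr1 was 2.40 and 3.46 against these classes and that of Fosb 2.18 and 4.16, all called. Against Mir139KO HSPCs, Fosb was called against neither class alone (adjusted p 0.112 for both), and Egr1 against the low-share class only (adjusted p 0.0395, and 0.0812 against the high-share class).

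**Figure D3:**
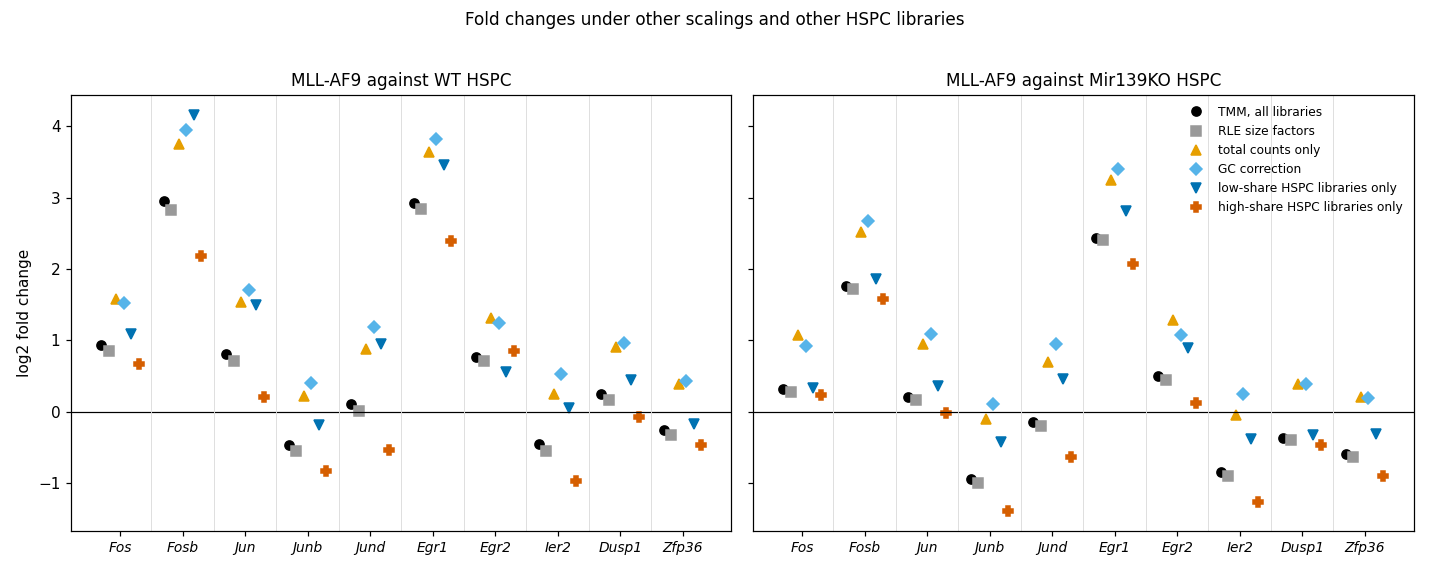
Log2 fold changes of the 10 genes in MLL-AF9 cells against WT (left) and Mir139KO HSPCs (right) under TMM, RLE or total-count scaling, GC correction, or HSPC libraries of a single Gm26917 share class. Egr1 and Fosb stayed above 0 at every setting shown, as did Fos and Egr2, whereas Junb, Jund, Ier2, Dusp1 and Zfp36 crossed 0 in both comparisons and Jun against Mir139KO HSPCs (-0.02 with the high-share class).

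Among MLL-AF9 cultures the genes varied widely. The highest library exceeded the lowest 10.4-fold for Egr1 and 9.11-fold for Fosb, and 1.80-fold for Egr2. Replicate 1, a neo culture, had the highest level of 8 genes, all but Fosb and Egr2. Jund was 75.5 CPM there and 34.9 to 42.4 CPM in the other 5 cultures. Egr1 had 131, 48.7 and 25.8 CPM in the neo cultures and 12.6, 31.2 and 16.9 CPM in the puro cultures, so the vectors overlapped.

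Between puro and neo cultures 0 of the 10 genes was called in edgeR (0.873% of 16503 genes), 1 had an unadjusted p under 0.05, and DESeq2 called 0 of them. In 0 genes were the vectors without overlap (19.9% of all genes). That 1 gene was Egr1, with a log2 fold change of -1.78 ± 0.64 (SE), an unadjusted p of 0.0287 and an adjusted p of 0.29 in edgeR, 0.0691 in DESeq2. Without replicate 1 the value was -0.88. The other 9 genes lay between -0.62 for Jun and 0.41 for Zfp36, each under 2 SE. Against WT HSPCs, Egr1 was 3.597 in neo and 1.80 in puro cultures on the log2 scale, both called. Replicates 4 and 6, both puro, resembled each other more than any other MLL-AF9 pair did (Pearson r 0.9948 across genes, which are not independent replicates, against at most 0.9805), and with the pair summed to 1 library Fos and Junb lost their calls.

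Lists of related genes were counted beside the 10. Every named gene below that was called in an MLL-AF9 comparison kept its sign with total counts and after GC correction, but the calls of Batf2, Batf3, Myc, Spry1, Zfp36l2 and Rps6ka1 as lower were lost under both. List counts are to be read against all genes, of which 32.8% were called higher and 29.4% lower against WT HSPCs, and 37.3% and 31.9% against Mir139KO HSPCs. With total counts these counts shifted towards higher calls, as did those of all genes. Of all genes 6747 were then called higher and 3128 lower of 17077 against WT, and 8011 and 3212 of 16953 against Mir139KO HSPCs. After GC correction they were 5562 and 4299 against WT, and 5986 and 4648 against Mir139KO HSPCs. List counts under these 2 settings below are to be read against these numbers. Of the other AP-1 partners, 4 of 8 were called higher and 2 lower against WT HSPCs, beside 32.8% and 29.4% of all genes. The same counts were found against Mir139KO HSPCs. With total counts they were 4 higher and 0 lower in both comparisons. Atf3, a stress-induced partner, had 2.13 ± 0.900 CPM (SD, n = 4) in WT HSPCs and 22.3 ± 15.2 CPM in MLL-AF9 cells (SD, n = 6). It rose by 3.37 ± 0.59 (SE) on the log2 scale, with an adjusted p of 0.000505 in edgeR. Fosl1, another Fos family gene, rose by 2.26 ± 0.37 (3.13 after GC correction). Batf3 (-1.77 ± 0.48) and Batf2 (-1.37 ± 0.47) fell. The median of the list was 0.39 beside 0.14 over all genes, and 1.12 after GC correction, with 4 called higher and 0 lower against WT and 5 and 0 against Mir139KO HSPCs.

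Other early transcription factors, 13 of which were tested, counted 2 higher and 2 lower against WT HSPCs, each under the share of all genes (32.8% and 29.4%), with a median log2 fold change of 0.22. Egr3, another EGR gene, rose by 1.94 ± 0.46 (SE) and Ier3 by 1.91 ± 0.41 (2.65 after GC correction). Klf4, which promotes monocyte differentiation, had 64.1 ± 17.7 CPM in WT HSPCs (SD, n = 4) and 1.81 ± 0.427 CPM in MLL-AF9 cells (SD, n = 6). Klf4 fell by 5.16 ± 0.31 (SE), with a log2 fold change of -4.56 after GC correction, and Myc fell by 1.18 ± 0.37 on the log2 scale. Against Mir139KO HSPCs 3 were called higher and 3 lower, with a median of -0.02, which became 0.08 after GC correction. With total counts 5 were called higher and 1 lower in both comparisons, and after GC correction 4 and 2 against WT and 3 and 2 against Mir139KO HSPCs.

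Feedback inhibitors, to which Dusp1 and Zfp36 are related, counted 3 of 13 higher and 2 lower against WT HSPCs (median 0.15), and 5 higher and 2 lower against Mir139KO HSPCs (median 0.03, and 0.72 after GC correction), beside 32.8% and 29.4%, and 37.3% and 31.9%, of all genes. After GC correction 6 were called higher and 0 lower in both comparisons, and with total counts 4 and 0 against WT and 6 and 0 against Mir139KO HSPCs. Spred1, an inhibitor of the Ras pathway, rose by 2.69 ± 0.47 (SE) and Dusp5, an ERK phosphatase, by 1.70 ± 0.45 on the log2 scale against WT HSPCs. After GC correction these values were 1.49 for Spred1 and 2.52 for Dusp5, both called. Spry1 (-1.77 ± 0.60) and the Zfp36 relative Zfp36l2 (-0.91 ± 0.34) fell. Zfp36l1 rose by 1.71 ± 0.55 against Mir139KO HSPCs.

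Genes of the upstream signalling, the kinases and the SRF, ELK and CREB factors, counted 6 of 14 higher and 2 lower against WT HSPCs (median 0.42), and 6 higher and 4 lower against Mir139KO HSPCs (median 0.57, and 0.14 after GC correction), beside 32.8% and 29.4%, and 37.3% and 31.9%, of all genes. After GC correction 4 were called higher and 1 lower against WT and 6 and 1 against Mir139KO HSPCs, and with total counts 6 and 1, and 8 and 1. Creb1 had 26.7 ± 12.5 CPM in WT HSPCs (SD, n = 4) and 127 ± 7.62 CPM in MLL-AF9 cells (SD, n = 6), and rose by 2.22 ± 0.32 (SE) on the log2 scale. After GC correction the value for Creb1 was 0.63 against WT and 0.55 against Mir139KO HSPCs, both called. The kinase gene Rps6ka5 rose by 2.08 ± 0.44, whereas Map2k2, which activates ERK (-1.78 ± 0.32), and Rps6ka1 (-1.15 ± 0.30) fell. After GC correction Rps6ka5 was 1.12 and Map2k2 -0.69, both called.

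Of the heat shock genes, 0 of 10 was called higher and 4 lower against WT HSPCs in edgeR (5 at an unadjusted p under 0.05), beside 32.8% and 29.4% of all genes, with a median log2 fold change of -1.03, -0.59 with total counts and -0.75 after GC correction. Under each of these other settings 1 gene was called higher. Hsph1 (-2.41 ± 0.68) and Dnajb1 (-2.25 ± 0.30, and -1.62 after GC correction) fell, both chaperone genes. Against Mir139KO HSPCs 5 fell, beside 31.9% of all genes, and Hsp90aa1 rose by 1.73 ± 0.66 (SE), a call lost after GC correction. Hspa1b was the 1 gene of these lists called between vectors, lower in puro cultures by a log2 fold change of -4.06 ± 0.63 (SE), with an adjusted p of 0.0493 in edgeR (0.0504 with RLE factors), and 0 genes were called in the other 4 lists.

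In Mir139KO against WT HSPCs 0 genes of the 5 lists were called in edgeR, 0 had an unadjusted p under 0.05, and DESeq2 called 0 over all genes. The medians were 0.13 for AP-1 partners, 0.04 for other early transcription factors, 0.01 for feedback inhibitors, -0.13 for upstream signalling and 0.10 for heat shock genes. The genes with the smallest unadjusted p were Atf3 (0.87 ± 0.39, p 0.0544), Btg2 (0.45 ± 0.26), Dusp6 (0.21 ± 0.22), Elk1 (0.22 ± 0.27) and Hspb1 (0.75 ± 0.53, log2 with SE).

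**Figure D4:**
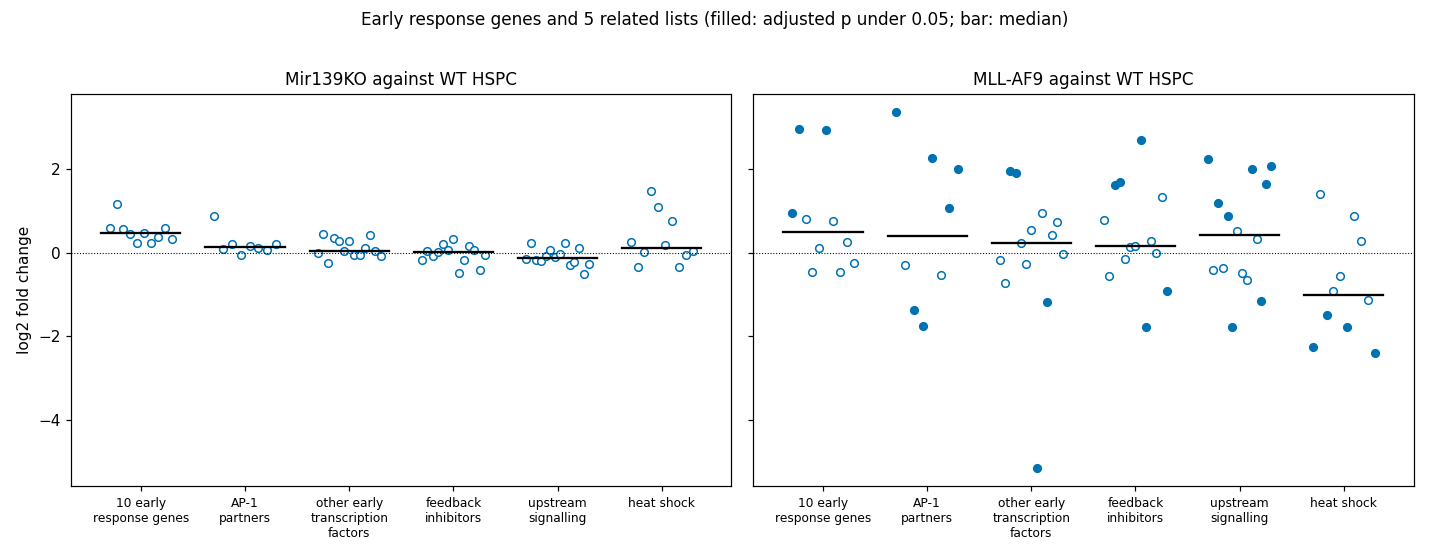
Log2 fold changes of the 10 early response genes and of the genes of 5 related lists in Mir139KO (left) and MLL-AF9 cells (right) against WT HSPCs, 1 point a gene, filled where the adjusted p was under 0.05, with a bar at the median. Early response genes had a median of 0.46 in Mir139KO HSPCs and 0.50 in MLL-AF9 cells, and heat shock genes a median of -1.03 in MLL-AF9 cells.

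Markers of other cell types fell in MLL-AF9 cells beside these results. Of the T and NK cell markers 8 of 8 were lower than in WT HSPCs, with a sum of 99.5 to 182 CPM in WT and 2.56 to 12.1 CPM in MLL-AF9 libraries and Klrb1c at 0. The 8 erythroid markers summed to 1258 to 1877 CPM in WT and to 2.29 to 15.8 CPM in MLL-AF9 libraries, with Hbb-bs and Car1 at 0. The 11 neutrophil markers, 5 of which were called lower, summed to 2454 to 4468 CPM in MLL-AF9 libraries, and the 8 monocyte and macrophage markers, 5 lower and 1 higher, to 269 to 1023 CPM beside 923 to 1749 CPM in WT. B cell markers (6 of 6 tested), mast cell, basophil and eosinophil markers (6 of 6), plasma cell markers (5 of 6, with 1 called higher) and stromal and endothelial markers (5 of 7) were also called lower than in WT HSPCs, with Ms4a1 at 0 in all libraries. Of 8 stem and progenitor markers 5 were called lower and 1 higher. How far these changes in cell makeup enter the values of the early response genes was not tested.

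The genes whose levels most resembled the mean of the 10 over the 8 HSPC libraries, as deviations from the genotype mean, were Grik5 (r = 0.98), Gm37352, Cnr2, Ficd, Prkd2, Thap4, Dexi and Agbl5 (r = 0.96), out of 8495 genes whose log2 CPM averaged 3 or more. Among the 10 genes Egr1 lay closest to that mean (r = 0.98), and Egr2 farthest (r = 0.18). Each of the 10 is itself part of the mean, which raises its r, so these values do not compare with those of the other genes. The points share the Gm26917 share classes, and r is given as a description.

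Several genes share exon bases with a neighbour on the other strand, and the strand setting of the counting is not stated, so their levels carry that uncertainty. Jund shares 877 of its 1668 exon bases with the antisense gene Gm11175, which had 0 counts. Jun shares 232 bases with Junos, Junb 173 with Prdx2, Zfp36 125 with Gm44710 and Dusp1 11 with Ergic1. Fos, Fosb, Egr1, Egr2 and Ier2 have no overlapping gene.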

How the data were processed

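Total RNA, depleted of ribosomal RNA, was sequenced from 14 libraries. Per the labels and the study's methods, the authors mapped reads to GRCm38 with STAR 2.5.3e, counted them per gene with featureCounts 1.6.0 and tested with DESeq2 1.22.2. The deposited values are raw counts, with no normalization. The second deposited table held the same 735700 values, and a fit of it was kept among the alternatives. It also held 10 columns of another series, not used here. Genes were placed with GENCODE M21 on GRCm38 (52403 of 52550).

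Counts were tested with edgeR 4.0.16 (TMM, quasi-likelihood, R 4.3.3) on the 2 groups compared, for genes with at least 10 counts in as many libraries as the smaller group has, with Benjamini-Hochberg adjustment over all genes and calls at 0.05. Log2 CPM used a prior count of 2. DESeq2 1.42.0 was an alternative. Fits were tested on simulated data. The GC correction was a spline with 5 degrees of freedom, with GC known for 99.83% of genes. The depth per library was 35016668 to 45877994 counts, and the number of samples limits precision.

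The 10 genes and the lists were chosen with earlier results of these data known. All 10 genes passed the filter in every comparison. Named in each list are the 2 called genes with the largest rise and the 2 with the largest fall, or the gene with the smallest unadjusted p. Replicate numbers were not taken to pair samples.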

Additional observations from a re-analysis of the deposited data

Results flagged for a closer look

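Jund in MLL-AF9 replicate 1 lay far above the other 5 cultures, at 75.5 CPM beside 34.9 to 42.4 CPM. The gap to the next culture was 0.749 of the whole range on the log2 scale, above Dixon's 95% critical value of 0.625 for 6 samples. It was the only such value among 30 gene and group combinations tested. Chance gives about 1 in 20 combinations, so 1 such value in 30 is not more than chance gives.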

How the results depend on the processing

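Against WT HSPCs, 3 genes were called in MLL-AF9 cells. The number became 6 with total counts, 7 with GC correction and 6 with GC correction and the replicate block. Of all 17077 genes, 10630 were called, and 9875, 9861 and 8500 under these settings in turn. Leaving out single libraries gave 2 to 3 of the 10 genes. Against Mir139KO HSPCs, 4 were called, 2 higher and 2 lower. The number became 6 with total counts, 6 with GC correction and 5 with GC correction and the replicate block, all higher and 0 lower, and 1 with low-share libraries, 2 with high-share libraries, 2 with neo cultures and 1 at an adjusted p under 0.01, with 2 to 4 when single libraries were left out. It was 2 without Mir139KO replicate 1 (Egr1 and Fosb) and 2 without Mir139KO replicate 4 (Egr1 and Ier2). Of all 16953 genes in this comparison, 11741 were called. That became 11223 with total counts, 10634 with GC correction and 9848 with GC correction and the replicate block. In Mir139KO against WT HSPCs and in puro against neo cultures the number of the 10 genes called stayed at 0 in every alternative run. The replicate block gave 5 genes against 4 for MLL-AF9 and Mir139KO HSPCs, adding Zfp36 as lower, and 3, 0 and 0 in the other comparisons. WT and Mir139KO samples sharing a number did not all deviate together (r of -0.561, 0.642, -0.579 and 0.431 for replicates 1 to 4). The samples of numbers 2 and 4 shared a Gm26917 share class, and those of numbers 1 and 3 did not. The numbers were therefore not taken as pairs.

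Log2 fold changes changed sign as follows, and the cause was not tested. Against WT HSPCs, Junb, Ier2 and Zfp36 became 0.22, 0.24 and 0.39 with total counts, 0.41, 0.53 and 0.44 with GC correction, and 0.34, 0.45 and 0.30 with GC correction and the replicate block. Ier2 was 0.052 with low-share libraries, Jund and Dusp1 were -0.53 and -0.068 with high-share libraries and -0.061 and -0.015 with puro cultures. Against Mir139KO HSPCs, Jund, Dusp1 and Zfp36 became 0.69, 0.38 and 0.20 with total counts, 0.95, 0.39 and 0.19 with GC correction, and 1.02, 0.41 and 0.014 with GC correction and the replicate block. Junb was 0.11 with GC correction, and Ier2 0.24 with GC correction and 0.15 with the block added. Jund was 0.46 with low-share libraries and 0.053 with neo cultures, and Jun -0.024 with high-share libraries and -0.091 with puro cultures. In Mir139KO against WT HSPCs, Egr2 was -0.33 with low-share libraries. In puro against neo cultures Junb was 0.19 with the replicate block and 0.063 with GC correction and the block.

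Leaving out single libraries gave ranges across 0 for Jund in Mir139KO against WT HSPCs (-0.048 to 0.48, negative without Mir139KO replicate 1), for Jund (-0.14 to 0.32) and Dusp1 (-0.064 to 0.39) in MLL-AF9 cells against WT, and for Jund (-0.34 to 0.099) and Jun (-0.027 to 0.34) against Mir139KO HSPCs. In puro against neo cultures the ranges were -0.38 to 0.91 for Junb, -0.58 to 0.056 for Jund, -0.49 to 0.16 for Ier2, -0.94 to 0.14 for Fosb and -0.14 to 0.30 for Egr2. The median over the 10 genes in Mir139KO against WT HSPCs, 0.46, was 0.22 without Mir139KO replicate 1 and 0.29 without WT replicate 2. Egr2, at 15 to 86 counts a library, was the gene most limited by depth, and it did not pass a filter of a mean of 100 counts.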
